A study of Mus musculus with 27 samples.

Results

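Cyclin-dependent kinase (CDK) inhibitors are small proteins that bind CDKs or CDK-cyclin complexes and hold back the cell cycle. The mRNAs of 6 genes of this class, *Cdkn1b*, *Cdkn1c*, *Cdkn2a*, *Cdkn2b*, *Cdkn2c* and *Cdkn2d*, were measured by RNA-seq in mouse embryonic stem cells (mESCs) depleted of Gas41 and in embryoid bodies (EBs). The genes were chosen by their names, as the CDK inhibitor genes other than *Cdkn1a* (p21), out of 27080 genes listed in the deposited tables. All 6 were listed in every comparison and passed the filter on low counts in every comparison. No measured value set which gene belongs to the group, but the results of all comparisons were known when it was drawn up, so the tests place each gene within the fit over all genes and are not independent evidence.

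The cells were J1 mESCs, an established mouse line grown without feeders and with leukemia inhibitory factor (LIF), and every RNA-seq library came from cells that carried a lentiviral control or *Gas41* shRNA vector. The groups were cells with the control vector (shNT, 3 libraries), with shGas41-1 (3 libraries) or with shGas41-2 (2 libraries), the knockdown (KD) cells being collected 8 days after infection, and control-vector cells kept as mESCs with LIF (EB day 0, 2 libraries) or aggregated without LIF for 6 days (EB day 6, 2 libraries). Gas41, listed as *Yeats4*, reads acetylated histones and belongs to complexes that deposit the histone variant H2A.Z, and the comparisons ask how its loss, or differentiation, changes gene expression. KD cells were infected and drug-selected populations, and an EB is a mixture of cell types. The paper states that its experiments had 2 or more biological repeats, but the labels do not say whether these replicates were separate cultures. The p-values therefore measure only the spread between these libraries, which may be technical.

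The 2 families of CDK inhibitors act on different partners. The Cip/Kip proteins p21, p27 (*Cdkn1b*) and p57 (*Cdkn1c*) bind complexes of CDK2 and other CDKs with their cyclins, whereas the INK4 proteins p16 (from *Cdkn2a*), p15 (*Cdkn2b*), p18 (*Cdkn2c*) and p19Ink4d (*Cdkn2d*) bind CDK4 and CDK6 and keep them from D-type cyclins. *Cdkn2a* also encodes p19Arf, which inhibits Mdm2 and thereby stabilizes p53, from another first exon and in another reading frame. mESCs divide fast with a short G1 phase, and CDK inhibitors are known for low levels in these cells and for rising as cells leave the cycle during differentiation.

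The sequences targeted by the shRNAs are shown because both KDs rest on them. Both lie in *Yeats4*, on chromosome 10 (mm9, minus strand). The target of shGas41-1 (chr10:116652513-116652533) is in the last exon, outside the coding sequence, and that of shGas41-2 (chr10:116659320-116659340) is in the coding sequence of exon 2. The closest stretch in any transcript of the 6 CDK inhibitor genes differed from either target at 8 or more of its 21 bases.
shGas41-1 target: gtagcattccacgacgttaag
shGas41-2 target: atcgttaagccaatcgtttat

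The promoters of *Cdkn2a* and *Cdkn2b* are shown because both genes fell at EB day 6 and are neighbours on the minus strand of chromosome 4. Their start sites lie 16384 bases apart in mm9. The sequences are RefSeq's, from 250 bases before to 50 bases after each start, on the minus strand of GRCm38.p6, a later build than that of the counts. *Cdkn2a* has 2 entries. The one nearer to *Cdkn2b* (chr4:89294570-89294869) belongs to the start that gives p19Arf, and the other (chr4:89282143-89282442) to the start that gives p16. The entry of *Cdkn2b* is chr4:89310983-89311282. Capitals mark matches, on either strand, to TGACGTCA (a cAMP response element), TTTCCCGC (an E2F motif), GGGCGG (a GC box) and CCAAT, and in the p16 promoter the CCAAT match, read as ATTGG, overlaps a GC box.
Cdkn2a promoter, p19Arf start: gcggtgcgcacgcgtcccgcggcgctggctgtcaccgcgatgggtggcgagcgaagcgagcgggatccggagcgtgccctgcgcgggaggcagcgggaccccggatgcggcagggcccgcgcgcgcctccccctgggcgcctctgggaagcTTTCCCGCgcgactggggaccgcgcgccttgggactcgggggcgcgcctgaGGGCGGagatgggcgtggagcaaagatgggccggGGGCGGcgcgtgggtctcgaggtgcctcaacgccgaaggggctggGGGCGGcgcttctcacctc
Cdkn2a promoter, p16 start: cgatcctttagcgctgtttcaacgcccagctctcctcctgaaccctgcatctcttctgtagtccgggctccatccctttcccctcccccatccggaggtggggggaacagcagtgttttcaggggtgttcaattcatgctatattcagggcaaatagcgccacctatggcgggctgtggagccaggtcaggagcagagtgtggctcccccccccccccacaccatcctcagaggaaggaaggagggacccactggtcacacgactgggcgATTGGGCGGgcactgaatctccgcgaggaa
Cdkn2b promoter: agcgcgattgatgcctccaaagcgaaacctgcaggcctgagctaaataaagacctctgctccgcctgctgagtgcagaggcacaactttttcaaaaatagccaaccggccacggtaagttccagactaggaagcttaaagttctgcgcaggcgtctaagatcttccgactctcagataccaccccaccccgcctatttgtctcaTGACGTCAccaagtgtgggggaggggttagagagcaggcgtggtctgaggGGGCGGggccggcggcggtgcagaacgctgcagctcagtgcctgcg

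The 3 promoters differed in CpG content and motifs. The p19Arf promoter held 45 CpG dinucleotides, the p16 promoter 12 and the *Cdkn2b* promoter 18, against a median of 7 over 32851 RefSeq promoters of that length. TGACGTCA was found only in the *Cdkn2b* promoter among these 3, and in 1.79% of all promoters, and TTTCCCGC only in the p19Arf promoter, and in 1.07% of all promoters. GGGCGG was in all 3 and in 35.7% of all promoters, and CCAAT only in the p16 promoter and in 37.4% of all promoters. TTTGGCGC (another E2F motif), TATAAA and CACGTG were also searched for, and none of the 3 promoters held them (0.514%, 13.6% and 7.15% of all promoters did). A match is a run of letters and not evidence that a factor binds there.

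The libraries held between 59224537 and 81524773 counts. Levels are given as CPM, the counts of a gene scaled to a common library size, with TMM factors between 0.945 and 1.05 that correct for differences in makeup between libraries, and the detection limit, set at 3 counts, was between 0.0373 and 0.0490 CPM and covers counting error only. *Yeats4* was at 55.2 ± 5.23 CPM in shNT (SD, n = 3), 4.31 ± 0.807 CPM with shGas41-1 (n = 3) and 8.39 ± 0.593 CPM with shGas41-2 (n = 2), so the KD labels matched the counts. Summed over 6 markers of undifferentiated mESCs, the level was between 4350 and 5350 CPM in the libraries of the 4 groups grown as mESCs and 1240 and 1550 CPM at EB day 6. All 4 mesoderm and all 4 endoderm markers tested were called higher at EB day 6, against 16.6% of all genes. The EB day 6 libraries differed from each other in these markers, with sums of 752 and 1240 CPM for mesoderm and 60.1 and 154 CPM for endoderm. *Pax6* (ectoderm, log2 difference 0.03) and *Pou5f1* (mESC, −0.34) were not called there.

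*Cdkn1c* was the CDK inhibitor gene that changed most in KD cells, and it rose with both shRNAs. It encodes p57 and is expressed from the maternal chromosome only, in an imprinted cluster (mm9 chr7:150644255-150646955, minus strand). It was at 15.6, 15.6 and 10.5 CPM in the 3 shNT libraries, at 80.6, 98.7 and 71.1 CPM in the 3 libraries of shGas41-1, and at 53.0 and 76.6 CPM in the pair of shGas41-2. Every KD library lay above every shNT library.

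The log2 fold change of *Cdkn1c* was 2.61 (standard error 0.21) with shGas41-1, a 6.10-fold rise, and 2.23 (standard error 0.21) with shGas41-2, a 4.7-fold rise. Its FDR was 0.00147 and 0.00149 (quasi-likelihood test of edgeR, adjusted over all genes), and by p-value it ranked 8 of 18274 genes and 91 of 18405. A gene was called when it changed at least 2-fold at an FDR of 0.05 or less. By that rule 1 of the 6 genes, *Cdkn1c*, was called in each KD, against 10.3% of all genes tested with shGas41-1 and 4.82% with shGas41-2. The KDs share their 3 shNT libraries, so they are not separate tests of the controls. Leaving out single libraries kept the log2 fold change at 2.43 to 2.71 with shGas41-1 and at 1.94 to 2.47 with shGas41-2, and it was called each time.

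**Figure D1:**
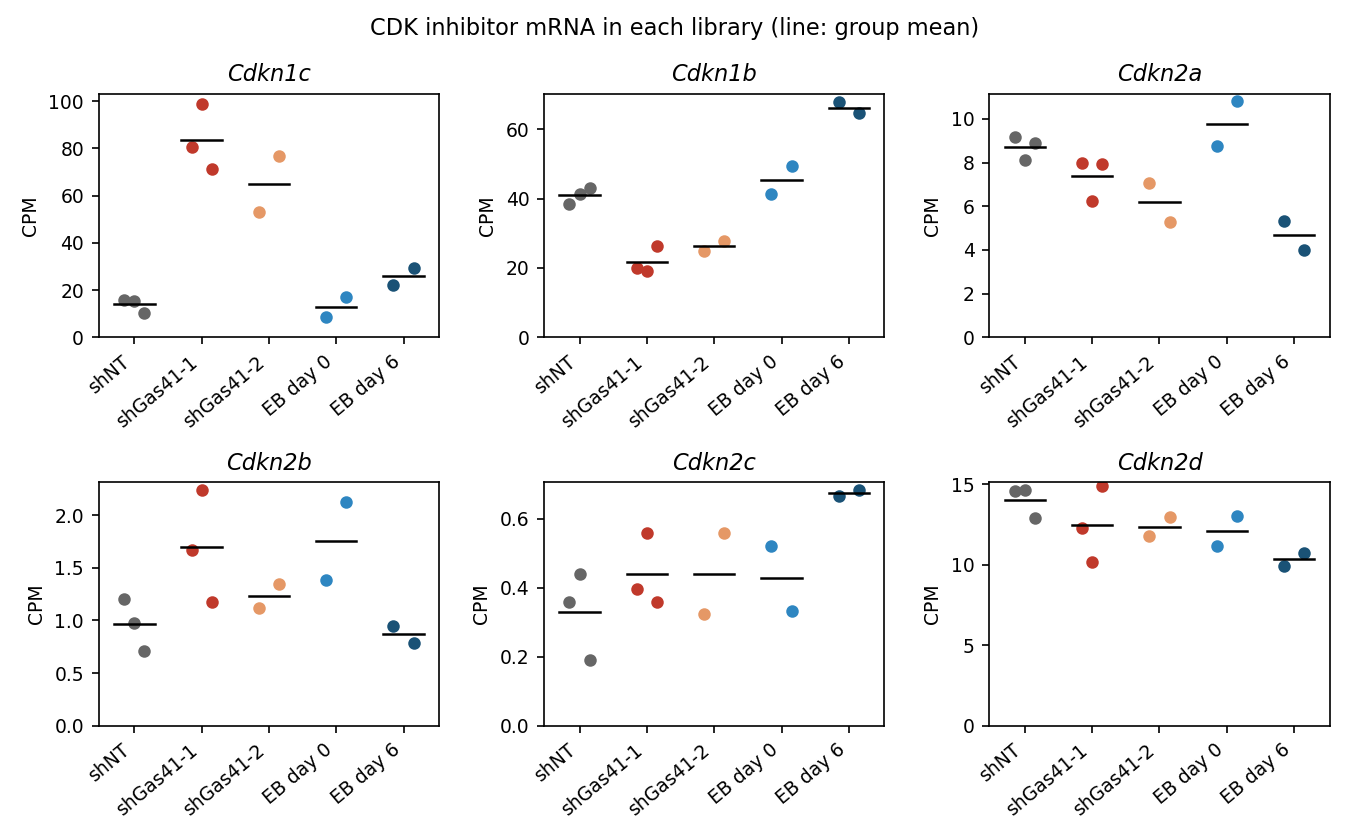
Level of each CDK inhibitor gene in CPM (linear axis from 0, scaled separately per gene) in every library; points are libraries and lines are group means. *Cdkn1c* in the 5 KD libraries lies between 53.0 and 98.7 CPM, above the other 7 libraries, and *Cdkn1b* in the KD libraries lies below all others.

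*Cdkn1b*, which encodes p27 and lies on the plus strand of chromosome 6 (mm9 chr6:134870419-134875531), moved the other way. It was at 38.3, 41.2 and 43.1 CPM in shNT, at 20.0, 19.2 and 26.2 CPM with shGas41-1 and at 24.9 and 27.7 CPM with shGas41-2. The groups did not overlap, and all 5 KD libraries were lower. *Cdkn1b* fell by 0.88 on the log2 scale with shGas41-1 (standard error 0.16, FDR = 0.00774, edgeR) and by 0.63 with shGas41-2 (standard error 0.11, FDR = 0.0145, edgeR). These are 1.84-fold and 1.54-fold decreases, so neither reached the 2-fold limit of a call. At an FDR of 0.05 or less and any fold, 2 of the 6 genes passed in each KD, against 18.5% and 9.91% of all genes tested. Without shGas41-1 replicate 3, the highest of its group, the decrease was 1.05 on the log2 scale (FDR = 0.00157, edgeR) and *Cdkn1b* was called. Across genes, that library differed more from replicates 1 and 2 (chi-square per degree of freedom of 144 and 236) than these did from each other (35.7). The FDR with shGas41-2 rose above 0.05 when shGas41-2 replicate 1, replicate 2 or shNT replicate 2 was left out, with values of 0.165, 0.0962 and 0.0704 in edgeR's test.

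The makeup of the Cip/Kip mRNAs differed between KD and control cells, as measured per kilobase (kb) of exon, the scale on which genes can be compared. In shNT, *Cdkn1c* was at 7.19 ± 1.53 CPM per kb and *Cdkn1b* at 8.98 ± 0.536 CPM per kb (SD, n = 3). The length used for *Cdkn1b* was 4552 bases, but a transcript of 2393 bases is also annotated. With a shorter length *Cdkn1b* would be higher per kb, and the ratios and shares of *Cdkn1c* lower. Which transcript was expressed was not tested. The ratio of the former to the latter was 0.963, 0.889 and 0.573 in the 3 shNT libraries, 9.50, 12.1 and 6.39 with shGas41-1, and 5.01 and 6.51 with shGas41-2. At EB day 0 it was 0.492 and 0.816, and at EB day 6 it was 0.771 and 1.07. The ranges of both control groups and of EB day 6 overlapped, and every KD library lay above them. *Cdkn1c* made up 20.1 ± 3.29% of the summed level per kb of the 6 genes in shNT (SD, n = 3). It made up 65.7 ± 6.63% with shGas41-1 (n = 3) and 60.1 ± 6.03% with shGas41-2 (n = 2). The sum itself went from 35.5 ± 1.99 to 65.5 ± 4.41 and 55.4 ± 8.79 CPM per kb. These 6 genes leave out *Cdkn1a* and include the INK4 genes, with *Cdkn2d*, whose level is uncertain as given below. Over the 3 Cip/Kip genes, the share of *Cdkn1c* was 18.03 ± 4.075%, 71.47 ± 1.792% and 58.83 ± 3.637% in the same order. At EB day 6 it was 18.32 ± 3.006% (n = 2). The Cip/Kip sum went from 40.02 ± 2.606 to 60.36 ± 8.71 and 56.71 ± 11.15 CPM per kb. It was highest at EB day 6, at 72.55 ± 2.298 CPM per kb.

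**Figure D2:**
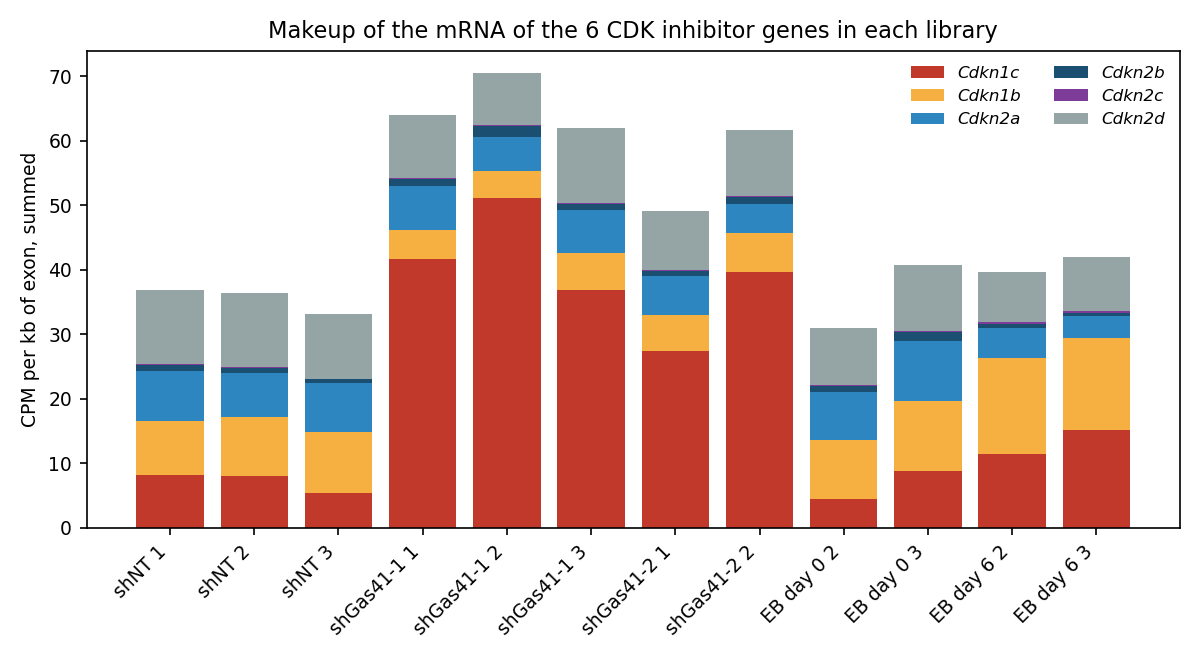
Summed level of the 6 CDK inhibitor genes in CPM per kb of exon (axis from 0), one bar per library, split by gene. The *Cdkn1c* segment is between 27.5 and 51.1 CPM per kb in the KD libraries and between 4.47 and 15.2 CPM per kb in the others.

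*Cdkn1a*, the remaining Cip/Kip gene and a target of p53, is given for comparison. It was at 53.0 ± 5.58 CPM in shNT (SD, n = 3), 27.4 ± 5.34 CPM with shGas41-1 (n = 3) and 38.6 ± 4.65 CPM with shGas41-2 (n = 2). It fell by 0.93 on the log2 scale with shGas41-1 (standard error 0.17, FDR = 0.00782, edgeR), while the log2 difference of −0.45 with shGas41-2 did not pass (standard error 0.13, FDR = 0.0652, edgeR). *Cdkn1c* was the only one of the 3 Cip/Kip genes whose KD libraries lay above shNT.

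None of the 4 INK4 genes passed edgeR's quasi-likelihood test in either KD, as fitted on the groups alone. *Cdkn2a* (mm9 chr4:88920377-88940557, minus strand) was at 9.16, 8.13 and 8.89 CPM in shNT, 7.98, 6.22 and 7.91 CPM with shGas41-1, and 7.08 and 5.28 CPM with shGas41-2. Each KD library was below each shNT library, but the log2 differences of −0.22 (standard error 0.16, FDR = 0.359, edgeR) and −0.49 (standard error 0.16, FDR = 0.0967, edgeR) did not pass. Over the alternatives run, the FDR for *Cdkn2a* with shGas41-2 lay between 0.000172 and 0.484 (edgeR and DESeq2). Its counts pool the transcripts of p16 and p19Arf, which were not told apart here.

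*Cdkn2b* (mm9 chr4:88952198-88956941, minus strand) was at 1.21, 0.975 and 0.706 CPM in shNT, 1.67, 2.24 and 1.18 CPM with shGas41-1 and 1.12 and 1.35 CPM with shGas41-2. The groups overlapped in both KDs. Its log2 difference was 0.84 with shGas41-1 (standard error 0.31, FDR = 0.0879, edgeR) and 0.37 with shGas41-2 (standard error 0.29, FDR = 0.437, edgeR). Without shGas41-1 replicate 3, the lowest of its group, the former was 1.03 (FDR = 0.0388, edgeR) and was called.

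*Cdkn2c* and *Cdkn2d* did not pass the test, and their KD and shNT libraries overlapped. *Cdkn2c* (mm9 chr4:109333481-109339794, minus strand) had between 14 and 45 counts in each of the 12 libraries, which is between 0.190 and 0.681 CPM, and its log2 differences of 0.44 and 0.43 had standard errors of 0.38 and 0.45 (FDR = 0.438 and 0.571, edgeR). At this depth a difference of that size was not detectable. *Cdkn2d* (mm9 chr9:21092907-21095653, minus strand) was between 9.95 and 14.9 CPM in all libraries, with log2 differences of −0.15 and −0.17 (FDR = 0.573 and 0.395, edgeR). Of the stretches of 50 bases in its exons, 95.91% also occur in *Gm4694*, an annotated copy elsewhere on chromosome 9, so reads of the pair cannot be told apart with certainty and the level of *Cdkn2d* is uncertain. *Gm4694* had log2 differences of −0.16 in both KDs. The exons of the other 5 genes shared no such stretch with another annotated gene.

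The shRNAs were also compared with each other, in a fit over all 12 libraries. In the quasi-likelihood test of edgeR, 0 of the 6 genes differed, 0 had an unadjusted p under 0.05 and DESeq2 called 0, against 0.0459% of all genes called. Over all genes, 1527 of 19613 had an unadjusted p under 0.05 in edgeR's test. The difference of *Cdkn1c* was 0.37 on the log2 scale (standard error 0.28, FDR = 0.819, edgeR) and that of *Cdkn1b* −0.27 (standard error 0.15, FDR = 0.716, edgeR).

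At EB day 6 the Cip/Kip genes were higher, though none was called, and the neighbours *Cdkn2a* and *Cdkn2b* were called lower. In this comparison 58.9% of all genes tested passed an FDR of 0.05 at any fold. A change in an EB can come from fewer cells of a type or from less RNA per cell, which bulk RNA cannot tell apart. *Cdkn2a* went from 8.74 and 10.8 CPM at day 0 to 5.34 and 4.01 CPM at day 6, with no overlap. It fell by 1.08 on the log2 scale (standard error 0.20, FDR = 0.00431, edgeR), a 2.12-fold decrease. *Cdkn2b* went from 1.39 and 2.12 CPM to 0.951 and 0.787 CPM, again with no overlap, and fell by 1.03 (standard error 0.32, FDR = 0.0304, edgeR), a 2.04-fold decrease. These were the 2 of 6 genes called, against 31.3% of all genes tested.

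Both calls lay close to the 2-fold limit and rested on single libraries. *Cdkn2a* fell by 0.92 without EB day 0 replicate 3 (FDR = 0.0873, edgeR) and by 0.88 without EB day 6 replicate 3 (FDR = 0.000438, edgeR), and *Cdkn2b* by 0.70 (FDR = 0.174, edgeR) and 0.89 (FDR = 0.0509, edgeR), so neither was called in either case. *Cdkn2b* was also higher at EB day 0 than in shNT in both libraries, by 0.87 on the log2 scale (standard error 0.32, FDR = 0.189, edgeR), and its day 6 libraries, at 0.951 and 0.787 CPM, lay within the range of shNT. Between these 2 sets of control cells, 0 of the 6 genes were called by edgeR and by DESeq2, against 0.178% of all genes called. One of the 6, *Cdkn2b*, had an unadjusted p under 0.05, against 3520 of 19613 genes (edgeR).

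**Figure D3:**
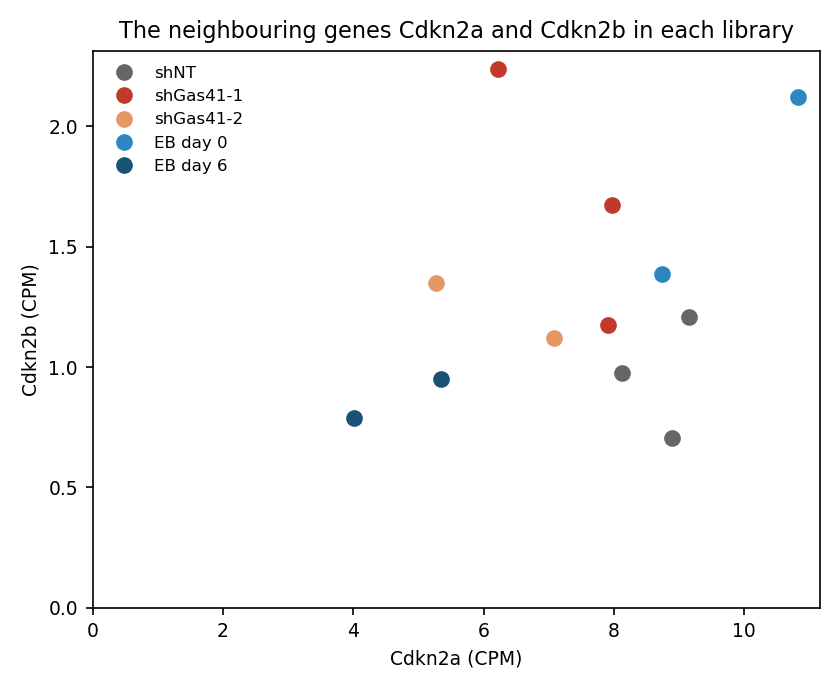
Levels of *Cdkn2a* and *Cdkn2b* in CPM (both axes linear from 0), one point per library, coloured by group. The EB day 6 libraries, at 5.34 and 4.01 CPM of *Cdkn2a*, lie below both EB day 0 libraries in both genes, and the shNT libraries, between 0.706 and 1.21 CPM of *Cdkn2b*, lie below EB day 0 in *Cdkn2b*.

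*Cdkn1b* went from 41.3 and 49.3 CPM at EB day 0 to 67.9 and 64.6 CPM at day 6, the highest values of the 12 libraries. It rose by 0.53 on the log2 scale (standard error 0.10, FDR = 0.00478, edgeR), a 1.44-fold increase. *Cdkn1c* went from 8.63 and 17.1 CPM to 22.2 and 29.3 CPM. Its rise of 0.99 (standard error 0.31, FDR = 0.0301, edgeR) was 1.98-fold and stood just below the limit of a call. The EB day 0 replicates of *Cdkn1c* lay apart, and without replicate 2 the rise was 0.57 (FDR = 0.0992, edgeR) and without replicate 3 it was 1.55 (FDR = 0.0410, edgeR), which was called. In the fit over all 12 libraries the rise was 1.01 (FDR = 0.0177, edgeR), also called. At any fold, 4 of the 6 genes passed an FDR of 0.05, against 58.9% of all genes tested. *Cdkn1a* rose by 0.79 (standard error 0.15, FDR = 0.00474, edgeR). All 3 Cip/Kip genes were thus higher at day 6, but none was called in the fit of the EB libraries alone.

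*Cdkn2c* and *Cdkn2d* did not pass the test at EB day 6. *Cdkn2c* was at 0.520 and 0.334 CPM at day 0 and at 0.664 and 0.681 CPM at day 6 (log2 difference 0.63, standard error 0.38, FDR = 0.201, edgeR), its 2 highest values. *Cdkn2d* was at 11.2 and 13.0 CPM and then at 9.95 and 10.8 CPM (log2 difference −0.25, standard error 0.14, FDR = 0.171, edgeR), and *Gm4694* differed by −0.20.

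**Figure D4:**
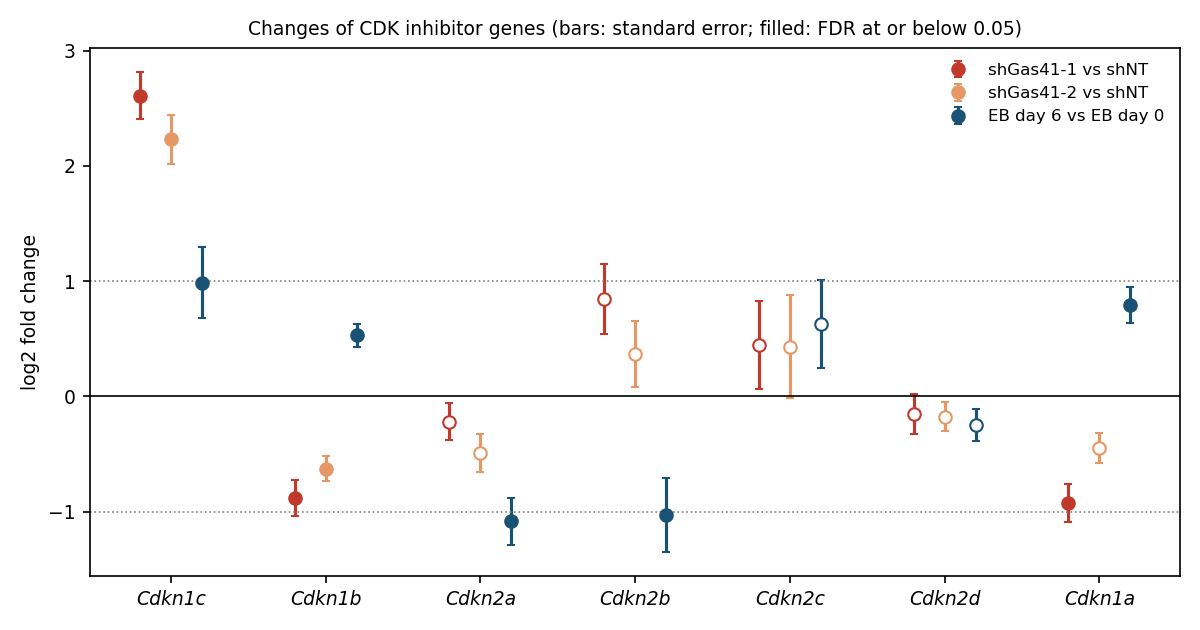
Log2 fold change of the 6 CDK inhibitor genes and *Cdkn1a* in the 3 comparisons, with bars for the standard error; filled points have an FDR of 0.05 or less and dotted lines mark 2-fold. *Cdkn1c* is above the upper line in both KDs, at 2.61 and 2.23, and *Cdkn1b* is below 0 in both KDs and above 0 at EB day 6.

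The responses to KD and to EB formation were then tested against each other in the 12-library fit. *Cdkn1b* differed most clearly, with a response 1.45 lower on the log2 scale with shGas41-1 than at EB day 6 (a difference of −1.45, standard error 0.21, FDR = 0.000166, edgeR) and a difference of −1.18 with shGas41-2 (standard error 0.22, FDR = 0.00107, edgeR). The response of *Cdkn1c* was higher in the KDs, by 1.58 (standard error 0.40, FDR = 0.00662, edgeR) and 1.22 (standard error 0.42, FDR = 0.0335, edgeR), and so was that of *Cdkn2b*, by 1.83 (standard error 0.46, FDR = 0.00622, edgeR) and 1.37 (standard error 0.48, FDR = 0.0369, edgeR). These 3 of the 6 genes were called for each shRNA, against 33.3% and 31.7% of all genes tested. For *Cdkn2b*, neither KD change passed on its own (FDR = 0.0879 and 0.437, edgeR). Its EB day 0 libraries also lay above shNT, by 0.87 on the log2 scale (FDR = 0.189, edgeR), so the contrast includes that gap between the control sets. The difference of *Cdkn2a* was 0.82 with shGas41-1 (FDR = 0.0258, edgeR, under 2-fold) and 0.57 with shGas41-2 (FDR = 0.129, edgeR). *Cdkn1b* kept its call in all 12 fits that left out 1 library, for each shRNA. With shGas41-2, *Cdkn1c* kept it in 8, and lost it without shNT replicate 3, shGas41-2 replicate 2, EB day 0 replicate 3 or EB day 6 replicate 2 (differences of 1.05, 0.93, 0.65 and 1.03), and *Cdkn2b* kept it in 5. With shGas41-1, *Cdkn1c* lost its call without EB day 0 replicate 3 (a difference of 1.01, FDR = 0.0504, edgeR).

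By order of level, *Cdkn1c* was highest with shGas41-1 (83.5 ± 14.1 CPM, SD, n = 3) and shGas41-2 (64.8 ± 16.7 CPM, n = 2), whose libraries overlapped, then at EB day 6 (25.7 ± 5.03 CPM, n = 2), and lowest in shNT (13.9 ± 2.95 CPM, n = 3) and at EB day 0 (12.8 ± 5.95 CPM, n = 2), which overlapped. *Cdkn1b* was highest at EB day 6 (66.2 ± 2.31 CPM, n = 2), then at EB day 0 (45.3 ± 5.61 CPM, n = 2) and in shNT (40.9 ± 2.44 CPM, n = 3), which overlapped, and lowest with shGas41-2 (26.3 ± 1.97 CPM, n = 2) and shGas41-1 (21.8 ± 3.86 CPM, n = 3), which overlapped. *Cdkn2a* ran from EB day 0 (9.78 ± 1.47 CPM, n = 2) through shNT (8.73 ± 0.536 CPM, n = 3), shGas41-1 (7.37 ± 0.998 CPM, n = 3) and shGas41-2 (6.18 ± 1.28 CPM, n = 2) to EB day 6 (4.68 ± 0.942 CPM, n = 2), and of the neighbours in this order only shNT and shGas41-1 did not overlap. Per kb of exon in shNT, *Cdkn2d*, whose level is uncertain for the copy named above, was at 11.1 ± 0.795 CPM per kb, *Cdkn1b* at 8.98, *Cdkn2a* at 7.46 ± 0.458, *Cdkn1c* at 7.19, *Cdkn2b* at 0.691 ± 0.181 and *Cdkn2c* at 0.123 ± 0.0472 CPM per kb (SD, n = 3). With the length of the longest transcript in place of all exons, *Cdkn2a* was at 9.39 CPM per kb, above *Cdkn1b*. The place of *Cdkn1b* in this order depends on its transcript length, as given above.

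None of the genes near the 6 inhibitor genes was called in KD cells by edgeR's quasi-likelihood test. Within 100 kb of their start sites lie the starts of 25 other genes, of which 15 were tested in each KD. By edgeR 0 were called in either, against 10.3% and 4.82% of all genes, while DESeq2 called 0 and 0 and edgeR's exact test 0 and 1. At an unadjusted p under 0.05 were 3 and 5, against 6405 of 18274 genes with shGas41-1 and 5209 of 18405 with shGas41-2 (edgeR). Beside *Cdkn1c*, *Slc22a18*, which starts 12671 bases away and encodes a membrane transporter, was at 1.03 ± 0.282 CPM in shNT (SD, n = 3) and 1.2 ± 0.087 CPM with shGas41-1 (n = 3). *Phlda2*, 41491 bases away and another maternally expressed gene of the cluster, had log2 differences of −0.46 (standard error 0.17, FDR = 0.0917, edgeR) and −0.52 (standard error 0.12, FDR = 0.0389, edgeR). At EB day 6, 4 of 16 tested were called, against 31.3% of all genes. *Slc22a18* fell by 2.42 on the log2 scale (standard error 0.47, FDR = 0.00497, edgeR), *Crebl2* near *Cdkn1b* fell by 1.23 (standard error 0.23, FDR = 0.00382, edgeR), and *Gpr19*, also near *Cdkn1b*, rose by 1.16 (standard error 0.15, FDR = 0.00077, edgeR), as did *S1pr5* near *Cdkn2d* by 3.64 (standard error 0.66, FDR = 0.00356, edgeR).

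In a wider list of 12 genes of the *Cdkn1c* imprinted cluster, the 11 tested with shGas41-1 had a median log2 difference of −0.09, against 0.02 over all genes. One, *Kcnq1*, was called (1.79, standard error 0.43, FDR = 0.0227, edgeR), against 10.3% of all genes. This gene was named after its values were seen, and DESeq2 and the exact test called 2 of the list each. *Kcnq1* had between 3 and 6 counts in each shNT library and between 15 and 20 with shGas41-1, and the kit does not mark strand, so reads of the antisense RNA that overlaps it could not be told apart. *Ascl2*, a maternally expressed transcription factor gene of the trophoblast, also named after its values were seen, had log2 differences of 1.06 with shGas41-1 (standard error 0.35, FDR = 0.0674, edgeR) and 0.94 with shGas41-2 (standard error 0.36, FDR = 0.138, edgeR) and did not pass. With shGas41-2, 0 of 10 were called by edgeR, DESeq2 or the exact test, against 4.82% of all genes by edgeR, and the median was −0.07. At an unadjusted p under 0.05 were 2 of the 10, against 5209 of 18405 genes (edgeR). At EB day 6, 2 of 10 rose and 1 fell, against 31.3% of all genes called. *Osbpl5* rose by 1.13 and *Tnfrsf23* by 1.22 on the log2 scale, and *Slc22a18* fell as given above.

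Of 13 genes for the CDKs and cyclins that these proteins bind, 1 was called with shGas41-1, against 10.3% of all genes. It was *Ccnd3* (cyclin D3), which went from 243 ± 28.1 CPM in shNT (SD, n = 3) to 114 ± 24 CPM (n = 3), a fall of 1.07 on the log2 scale (standard error 0.17, FDR = 0.0051, edgeR). With shGas41-2, 0 were called by edgeR, DESeq2 or the exact test, against 4.82% of all genes by edgeR. At an unadjusted p under 0.05 were 4 of the 13, against 5209 of 18405 genes (edgeR). The median log2 difference of the 13 was −0.19 and −0.11. At EB day 6, *Ccnd3* fell by 1.53 (standard error 0.13, FDR = 0.000142, edgeR) and *Ccna1* (cyclin A1, known from the germline) by 2.45 (standard error 0.58, FDR = 0.0111, edgeR), and the other 11 were not called, against 31.3% of all genes called.

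Among 13 pocket protein and E2F genes, which act downstream of CDKs, *E2f2* was the 1 called with shGas41-1, against 10.3% of all genes. It went from 28.9 ± 4.83 CPM (SD, n = 3) to 14.0 ± 2.39 CPM (n = 3), a fall of 1.02 on the log2 scale (standard error 0.17, FDR = 0.00658, edgeR). With shGas41-2, 0 were called by edgeR, DESeq2 or the exact test, against 4.82% of all genes by edgeR. At an unadjusted p under 0.05 were 4 of the 13, against 5209 of 18405 genes (edgeR). At EB day 6, *E2f2* fell by 3.01, *Rbl2* (p130) by 1.86 and *E2f8* by 1.06 on the log2 scale, and *E2f6*, a repressor, rose by 1.23, so that 4 of 13 were called, against 31.3% of all genes. Of 5 genes for the turnover of p27 protein, including *Skp2* and *Cks1b*, edgeR, DESeq2 and the exact test called 0 in any comparison. By edgeR the shares of all genes called were 10.3%, 4.82% and 31.3% (shGas41-1, shGas41-2, EB day 6). At an unadjusted p under 0.05 were 3, 1 and 4 of the 5 in that order, against 6405 of 18274, 5209 of 18405 and 11686 of 18287 genes (edgeR).

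Of 9 genes known to regulate the *Cdkn2a* locus, edgeR, DESeq2 and the exact test called 0 in either KD, against 10.3% and 4.82% of all genes by edgeR. At an unadjusted p under 0.05 were 4 with shGas41-1 and 2 with shGas41-2, against 6405 of 18274 and 5209 of 18405 genes (edgeR). At EB day 6, 3 rose and 1 fell, 4 of 9 being called against 31.3% of all genes. *Hmga2*, a chromatin protein of embryonic cells, rose by 3.94 on the log2 scale (standard error 0.37, FDR = 0.000228, edgeR), and *Kdm2b*, a histone demethylase and partner of Polycomb proteins, by 1.33 (standard error 0.12, FDR = 0.00016, edgeR), while *Tbx3* fell by 3.09 (standard error 0.45, FDR = 0.00152, edgeR). *Tbx2*, a T-box repressor like *Tbx3*, went from 0.0494 ± 0.00559 CPM at day 0, near the detection limit, to 0.204 ± 0.0325 CPM at day 6 (SD, n = 2 each, FDR = 0.0267 from edgeR's test over all genes), the only one of the 4 that DESeq2 did not call.

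Some lineage markers also differed in KD cells. Over all genes, edgeR's quasi-likelihood test called 10.3% with shGas41-1 (7.9% higher) and 4.82% with shGas41-2 (3.96% higher). Of 4 trophoblast markers, *Cdx2* and *Gata3* were called higher among the 3 tested with shGas41-1 and *Gata3* among the 4 tested with shGas41-2, where DESeq2 and the exact test called 2 each. Their summed level was between 0.353 and 1.06 CPM in shNT, 3.04 to 5.57 CPM with shGas41-1, 2.50 and 2.90 CPM with shGas41-2, 0.881 and 0.940 CPM at EB day 0, and 21.5 and 38.8 CPM at EB day 6, with none of the 4 at 0 in every library of a group. The sum at EB day 6 was mostly *Cdx2* (22.2 ± 6.35 CPM) and *Hand1* (5.34 ± 4.09 CPM, SD, n = 2 each). *Gata3* was at 2.54 ± 1.76 CPM there (n = 2) and at 2.32 ± 0.897 CPM with shGas41-1 (n = 3). *Elf5* was at 0.0303 ± 0.0214 CPM at EB day 6 (n = 2), near the detection limit. It was at 0.119 ± 0.0494 CPM with shGas41-1 (n = 3) and 0.223 ± 0.0334 CPM with shGas41-2 (n = 2). The sums therefore do not rank the groups for every marker. The sums of the 4 endoderm markers were between 1.71 and 2.06 CPM in shNT, 2.57 to 5.14 CPM with shGas41-1 and 2.59 and 2.63 CPM with shGas41-2, and 1 of 4, *Gata6*, was called with shGas41-1 by edgeR's quasi-likelihood test and 2 each by DESeq2 and the exact test. The 4 mesoderm markers summed to between 2.86 and 5.84 CPM in all shNT and KD libraries. The 2 ectoderm markers listed summed to between 10.6 and 11.2 CPM in shNT, 18.2 to 22.4 CPM with shGas41-1 and 12.3 and 15.2 CPM with shGas41-2, the 3 epiblast markers to between 71.7 and 84.7, 64.6 and 104, and 81.4 and 84.4 CPM, and the 5 fibroblast markers to between 10.8 and 19.5, 6.69 and 10.8, and 13.8 and 14.9 CPM. With shGas41-1, *Pax6* and *Fgf5* were called higher and the fibroblast marker *Thy1* and the mESC markers *Esrrb* and *Klf4* lower. Not called were *Otx2* and *Dnmt3b* (epiblast, log2 differences of −0.36 and 0.27) and *Nes* (ectoderm, 0.02). The same held for *Pou5f1*, *Nanog*, *Sox2* and *Zfp42* (mESC, 0.05, 0.09, −0.28 and 0.44). With shGas41-2, edgeR's quasi-likelihood test called only *Gata3* of all these lists, while DESeq2 and the exact test each called 2 trophoblast markers and 1 ectoderm marker. The markers named here were picked out after their values were seen. Bulk RNA does not show whether these markers came from a few cells or from all. Their relation to the level of *Cdkn1c* was not tested.

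The genes whose levels followed each inhibitor most closely were sought by Pearson correlation of log2(CPM + 0.5) over the 12 libraries, which share their groups, so r is a description. They were *Thnsl2* (r = 0.96), *Pik3r3* (0.96) and *Il13ra1* (0.95) for *Cdkn1c*, *Zfp128* (0.98), *Armcx2* (0.98) and *Zfp764* (0.98) for *Cdkn1b*, and *Napb* (0.94), *Dmd* (0.94) and *Trpa1* (0.92) for *Cdkn2a*. Among the genes closest to *Cdkn2b* were *Sox21* (0.82) and *Slc12a2* (0.80). *Cdkn2c* and *Cdkn2d* spanned only 0.78 and 0.56 log2 units over the libraries, and their nearest genes were *Npr2* (0.86) and *Lage3* (0.93). With 2 in place of 0.5, all 3 genes were the same for *Cdkn1c*, *Cdkn1b* and *Cdkn2a*, but only 2 for *Cdkn2b* and 1 each for *Cdkn2c* and *Cdkn2d*.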

How the data were processed

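RNA was read from 12 libraries in 5 groups, taken from the sample labels. The ChIP-seq samples were not analysed here. The deposited counts are whole numbers of reads per gene, without normalization. The authors mapped the reads to mm9 with TopHat2 (version 2.0.10 in the submitters' processing notes), counted them with htseq-count and added columns of their own edgeR comparisons (fold changes, p-values, FDR), which were not used. Columns headed ESC in the EB table were read as EB day 0, which its labels name. The kit (TruSeq RNA) does not mark strand.

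After filterByExpr (minimum count of 10 and total of 15), counts were scaled by TMM and tested with edgeR 4.0.16 in R 4.3.3 (glmQLFit, glmQLFTest, Benjamini-Hochberg over all genes tested). Genes were called when they changed at least 2-fold and their FDR was at most 0.05. Each KD was compared with shNT, EB day 6 with EB day 0, and 4 further contrasts were taken from 1 fit over the 12 libraries. That fit used the 23494 genes listed in all 3 tables, before the filter. For levels, genes missing from a table were set to 0, since genes listed in only 1 KD table had 0 shNT counts. The test was checked on simulated counts with known changes. The depth, between 59224537 and 81524773 counts, makes 3 counts worth at most 0.0490 CPM. Exon lengths, positions and shared sequence came from GENCODE vM1 on mm9. Promoters came from RefSeq (GRCm38.p6), which matched 5 of the 6 genes, all but *Cdkn1c*. Members, lists and tests were chosen with earlier results of these data known. Named were the 6 genes, *Cdkn1a*, *Yeats4*, called genes within 100 kb, called genes of the lists (in both KDs or at EB day 6, at most 4 per list), and the genes most like each member, of which 1 is not reported here. Alternatives were DESeq2 1.42.0, edgeR's exact test, other scaling, filters, thresholds and exon lengths, halved counts, a replicate block, and leaving out each library.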

Additional observations from a re-analysis of the deposited data

How the results depend on the processing

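*Cdkn1c* was called in both KDs under every alternative run. At an FDR of 0.01, 925 genes were called with shGas41-1 and 328 with shGas41-2, and at EB day 6 the test called 1 of the 6 CDK inhibitor genes, *Cdkn2a*. Without the fold limit, 3383 (shGas41-1), 1824 (shGas41-2) and 10779 (EB day 6) genes passed, among them 2, 2 and 4 of the 6. The edgeR exact test called 1335 genes with shGas41-2. With the replicate number as a block, 1334 genes were called with shGas41-2, and 1 of the 6 (*Cdkn1b*) differed between its response and that at EB day 6, the FDR of *Cdkn1c* and *Cdkn2b* being 0.0608 and 0.0564 (edgeR). With shGas41-2, *Cdkn2a* and *Cdkn2d* then had an FDR of 0.000172 and 0.0246 (log2 differences of −0.49 and −0.24, edgeR), under 2-fold. The block moved the difference of *Cdkn2d* between the shRNAs to −0.041. Whether the numbers pair the libraries is not known, since no label says what they stand for. The deviations of same-numbered libraries had correlations of 0.005, 0.15 and −0.39 with shGas41-1, 0.34 and 0.24 with shGas41-2 and 0.055 in the EB comparison. With the exon length of the longest transcript, *Cdkn2a* was at 9.39 CPM per kb in shNT.

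When single libraries were left out, the genes called ranged from 1222 to 2049 with shGas41-1, from 287 to 1467 with shGas41-2 and from 3710 to 5958 at EB day 6. The counts moved by over 1.5 times without shNT replicate 2 (1222) or 3 (1236) for shGas41-1, without shGas41-2 replicate 1 (347) or 2 (287) or shNT replicate 1 (1467) or 2 (465) for shGas41-2, and without EB day 0 replicate 3 (3710) for EB day 6. Of the 6 CDK inhibitor genes, the number called ranged from 1 to 3 with shGas41-1, from 0 to 3 at EB day 6 and from 1 to 3 for the difference between the shGas41-2 and EB responses. Log2 differences that changed sign were all of genes not called. They ranged from −0.68 to 0.30 for *Cdkn1c* between EB day 0 and shNT. For *Cdkn2c* they ranged from −0.013 to 0.77 with shGas41-2, from −0.34 to 0.44 between the shRNAs, and from −0.59 to 0.054 and from −0.67 to 0.11 for the KD minus the EB response with shGas41-1 and shGas41-2, and for *Cdkn2d* from −0.14 to 0.14, from −0.098 to 0.19 and from −0.070 to 0.15 in the last 3 of these. The cause of these shifts was not tested. Where a group was left with 1 library, that library was assumed to vary like those of the other groups. *Cdkn2c* had between 14 and 45 counts per library.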
